A study of Mus musculus with 2 samples.

Results

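The miR-23/27/24 genes lie in 2 clusters of 3 genes each, Mir23a, Mir27a and Mir24-2 on mouse chromosome 8 and Mir23b, Mir27b and Mir24-1 on chromosome 13. These 6 genes were taken by symbol from the 2202 miRNA genes measured, and all 6 were found. The series holds small RNA libraries of 2 hearts, from female mice of the strain B6CASTF1/J, a first-generation cross of C57BL/6 and CAST, aged 36 days. The hearts form 1 group (n = 2, replicates 1 and 2) with no treatment and no engineered allele in the labels. The hearts carry biosample records of their own and share 1 donor code, and nothing else in the labels says how the 2 animals are related. The labels say heart tissue and name no cell type, so fewer cells of a type and less RNA per cell cannot be told apart.

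A miRNA is cut from a hairpin in a longer transcript, and its seed, the bases near its 5′ end, pairs with target mRNAs. The hairpins of a miR-23/27/24 cluster are known to be made from a shared primary transcript, so the cluster is an example of several miRNAs with different seeds that start from 1 RNA. In heart and vessels the family is known from endothelial cells and vessel growth (miR-23 and miR-27), from growth of heart muscle cells under load (miR-23a) and from survival of heart muscle and endothelial cells (miR-24). miR-27 is also known for repressing fat cell formation.

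The mature sequences are shown because they decide which reads could be given to which cluster. They come from RefSeq (GRCm38.p6), whose hairpin coordinates and hairpin letters were the same as those of GENCODE M21 for all 6 genes. The mature miR-23b-3p and the 5p matures of miR-23 and miR-27 are not shown. Capitals mark the seed, bases 2 to 8.
miR-23a-3p: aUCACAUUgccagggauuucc
miR-27a-3p: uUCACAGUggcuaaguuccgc
miR-27b-3p: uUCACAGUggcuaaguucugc
miR-24-3p: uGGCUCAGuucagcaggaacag
miR-24-2-5p: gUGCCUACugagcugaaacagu
miR-24-1-5p: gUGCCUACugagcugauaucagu
The seeds of miR-23a-3p and miR-27a-3p share their first 5 bases and differ by U6G, counted from 1 at the first base of the seed. The 3p matures of miR-27 have the same seed and differ in 1 base, C19U. It is counted from the 5′ end of miR-27a-3p with the base of miR-27b-3p last. The mature miR-24-3p has 22 bases and is found whole at both Mir24-1 and Mir24-2.

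The hairpins of the Mir23 and Mir24 pairs are shown with the longest run that the pair shares in capitals. That run has 20 bases in Mir23a and Mir23b and 28 bases in Mir24-2 and Mir24-1.
Mir23a: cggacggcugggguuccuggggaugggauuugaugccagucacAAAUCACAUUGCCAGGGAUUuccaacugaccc
Mir23b: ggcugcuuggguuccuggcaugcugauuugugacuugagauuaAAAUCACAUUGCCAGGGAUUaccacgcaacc
Mir24-2: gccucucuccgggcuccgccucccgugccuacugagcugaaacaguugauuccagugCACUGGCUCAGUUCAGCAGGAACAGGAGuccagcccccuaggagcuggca
Mir24-1: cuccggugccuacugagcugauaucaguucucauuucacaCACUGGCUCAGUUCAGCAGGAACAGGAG
The first 18 of the 21 bases of miR-23a-3p stand in the Mir23b hairpin, so a read of this arm that ends at base 18 or before fits both clusters. The same length of 18 bases holds for miR-27a-3p and miR-27b-3p, whose hairpins share a run of 20 bases. The 5p matures of miR-24 part earlier, after 16 shared bases. Set against all annotated hairpins outside the gene's own locus, on either strand, no length of miR-24-3p is unique, while miR-23a-3p and miR-27a-3p are unique from 19 bases on. In this search the 5p matures of miR-23 and miR-27 are unique from fewer bases on. These are 9 for miR-27a-5p, 10 for miR-23a-5p and 11 for miR-23b-5p and miR-27b-5p. The rest of the genome was not searched. Reads that mapped to several places were counted at no gene, so the counts of Mir24-1 and Mir24-2 do not give the level of miR-24-3p. How many mismatches the alignment allowed is not given in the sources used here, and the counts do not tell the 5p arm from the 3p arm of a hairpin.

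The chromosome 8 cluster (mm10, chromosome 8, 84208518 to 84208921, plus strand) spans 404 bp. Mir23a lies at 84208518 to 84208592, Mir27a at 84208672 to 84208758 and Mir24-2 at 84208815 to 84208921. Mir23a and Mir27a overlap no other annotated gene, Mir24-2 overlaps an exon of the lincRNA Gm26532, and the nearest protein-coding gene, Zswim4, is 1757 bp away. The chromosome 13 cluster (63300484 to 63301275, plus strand) spans 792 bp. Its hairpins stand further apart, with 154 bp from Mir23b (63300484 to 63300557) to Mir27b (63300712 to 63300784) and 423 bp from there to Mir24-1 (63301208 to 63301275), against 79 and 56 bp on chromosome 8. The protein-coding gene 2010111I01Rik lies across this cluster on the same strand. Mir23b is intronic in all 9 of its transcripts there, Mir27b overlaps an exon in 1 of 9, and Mir24-1 does in 4 of 11. On the minus strand, 1 transcript of Fancc, a DNA repair gene, spans this cluster with no exon in it. Both Mir24 genes face an annotated hairpin on the minus strand, Mir3074-2 and Mir3074-1.

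**Figure D1:**
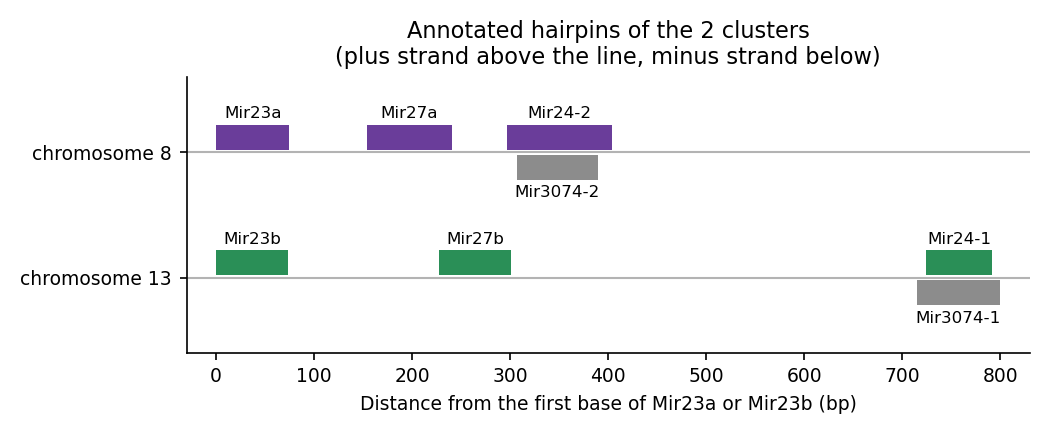
Position of the annotated hairpins in base pairs from the first base of Mir23a (chromosome 8, top) or Mir23b (chromosome 13, bottom), to scale, with plus-strand hairpins above each line and minus-strand hairpins below. The order is the same on both chromosomes, the chromosome 13 cluster is longer (792 against 404 bp), and each Mir24 hairpin faces a Mir3074 hairpin.

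The libraries held 2074961 (replicate 1) and 1766135 (replicate 2) reads on miRNA genes, which were 37.0% and 35.4% of all reads. Reads that mapped to several places made up 42.0% and 39.8%. Levels are in CPM, counts on the gene's strand per 1000000 such counts over all miRNA genes, so that 1 read is worth 0.482 and 0.566 CPM. Intervals are exact Clopper-Pearson intervals at the 95% level and, as PCR reads without molecular identifiers are not independent molecules, cover counting error only. Of 7 heart muscle markers, 5 reached 2 CPM in both hearts. Mir208a (3809 and 5069 CPM), Mir499 (2214 and 3475 CPM) and Mir208b (120 and 157 CPM), which lie in myosin genes, had the most. Mir1a-2 had 58.3 and 37.4 CPM and Mir1a-1 3.86 and 3.96 CPM, while Mir133a-1 (8 and 2 counts) and Mir133a-2 (2 and 2 counts) were near the limit of detection; miR-1 and miR-133 are known as abundant heart muscle miRNAs with several gene copies, and reads that fit several places are not in these counts. Of 6 neuronal markers, 5 had no count.

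Together the 6 genes held 10.5% of miRNA gene counts in replicate 1 and 11.4% in replicate 2, a mean of 10.9% ± 0.671 (SD, n = 2). The chromosome 8 cluster held 5.10% ± 0.307 and the chromosome 13 cluster 5.83% ± 0.364. Nearly all of these counts fell on the Mir23 genes: Mir23a and Mir23b made up 96.0% and 95.0% of the family's counts. Reads that mapped to several places are in none of these shares, and the mature found whole at both Mir24 genes gives such reads. The shares therefore do not give the part of miR-23 among the family's mature miRNAs. All 6 genes were above 2 CPM in both hearts, as were 335 of the 2202 genes.

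Mir23b, the first gene of the chromosome 13 cluster, had 109173 counts in replicate 1 and 100250 in replicate 2. That was 52615 CPM (interval 52311 to 52919) and 56762 CPM (56422 to 57105), a mean of 54688 ± 2933 CPM (SD, n = 2), and the fifth place among all miRNA genes in either heart. Its chromosome 8 counterpart Mir23a had 99101 and 91129 counts, or 47760 CPM (47471 to 48051) and 51598 CPM (51272 to 51925), with a mean of 49679 ± 2714 CPM. The hearts' values did not overlap between the 2 genes, although Mir23a in replicate 2 came close to Mir23b in replicate 1. By mean level, Mir23b stood between Mirlet7g (61610 ± 17205 CPM) and Mir99a (51387 ± 7313 CPM). Mir23a, at the eighth place, stood between Mirlet7b (49816 ± 12237 CPM) and Mirlet7d (45297 ± 8135 CPM), members of the broadly expressed let-7 family.

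The miR-27 genes were far lower. Mir27b had 6227 and 6985 counts, 3001 CPM (2927 to 3076) and 3955 CPM (3863 to 4049), with a mean of 3478 ± 675 CPM. Mir27a had 2061 and 2551 counts, 993 CPM (951 to 1037) and 1444 CPM (1389 to 1502), with a mean of 1219 ± 319 CPM. Mir27b was the higher of this pair in both hearts, with no overlap, and replicate 2 was higher than replicate 1 for both genes on this scale. In the order of mean CPM they came at places 31 and 63. Mir27b stood between Mir29a (3724 ± 686 CPM), of a family known to repress collagen genes, and Mir130a (3231 ± 663 CPM), a miRNA known from vessel growth.

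The counts of the miR-24 genes were lowest, and they are, like all counts here, only the reads that fit a single place. Mir24-2 had 238 and 308 counts, 115 CPM (101 to 130) and 174 CPM (155 to 195), with a mean of 145 ± 42.2 CPM. Mir24-1 had 232 and 271 counts, 112 CPM (97.9 to 127) and 153 CPM (136 to 173), with a mean of 133 ± 29.4 CPM. The 2 genes overlapped over the hearts, so their order is not resolved. The gaps between the pairs were wide: the mean of Mir23a was 14.3 times that of Mir27b, and the mean of Mir27a 8.43 times that of Mir24-2.

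**Figure D2:**
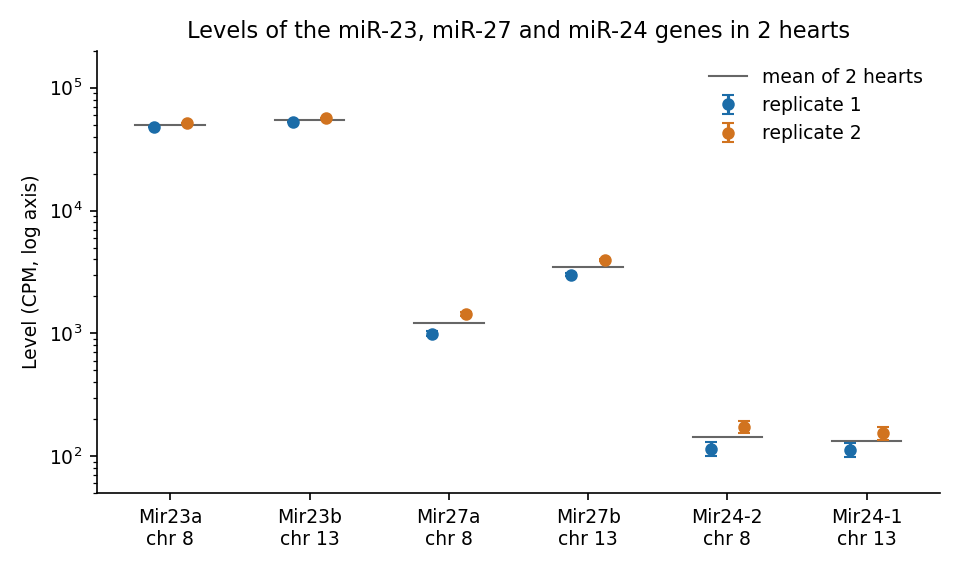
Level of each gene in CPM on a log axis in replicate 1 (blue) and replicate 2 (orange); bars are exact 95% intervals from counting and grey lines the mean of the 2 hearts. The Mir23 genes lie highest (means 49679 and 54688 CPM), the Mir27 genes between 993 and 3955 CPM, and the values of the Mir24 genes, from 112 to 174 CPM, overlap.

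Ratios within a library do not depend on how libraries are scaled, and 9 were computed, with intervals that are not adjusted for their number. The split of miR-23 between the clusters was the same in both hearts within counting error. Mir23a stood at 0.908 (0.900 to 0.916) of Mir23b in replicate 1 and 0.909 (0.901 to 0.917) in replicate 2. The ratio in replicate 2 was 1.00 times that in replicate 1 (exact conditional interval 0.989 to 1.01).

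The split of miR-27 leaned to chromosome 13 and moved a little. The ratio of Mir27b to Mir27a was 3.02 (2.87 to 3.18) in replicate 1, against 2.74 (2.62 to 2.87) in replicate 2. The ratio of Mir27a to Mir27b was 0.331 and 0.365, 1.10 times higher (1.03 to 1.18) in replicate 2. The ratio of Mir24-2 to Mir24-1 was 1.03 (0.853 to 1.23) and 1.14 (0.962 to 1.34). Neither heart's interval excludes equal counts, and the change between hearts, 1.11 times (0.862 to 1.42), was not detectable at this depth.

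Within each cluster, Mir23 counts exceeded those of its neighbours, and the step from Mir23 to Mir27 was larger on chromosome 8. The ratio of Mir23a to Mir27a was 48.1 (46.0 to 50.3) in replicate 1, against 35.7 (34.3 to 37.2) in replicate 2. For Mir23b and Mir27b the ratios were 17.5 (17.1 to 17.99) and 14.4 (14.0 to 14.7). Against Mir24-2, Mir23a was higher by 416 times (367 to 475) and 296 times (265 to 332). Against Mir24-1, Mir23b was higher by 471 times (414 to 538) and 370 times (328 to 418). All of these ratios hold only reads that fit a single place, so they do not give ratios of mature miRNAs.

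Both clusters differed between the hearts in the same direction. Relative to Mir23a, Mir27a was 1.35 times higher (1.27 to 1.43) in replicate 2 and Mir24-2 1.41 times higher (1.18 to 1.67). Relative to Mir23b, Mir27b was 1.22 times higher (1.18 to 1.27) in replicate 2 and Mir24-1 1.27 times higher (1.06 to 1.52). The ratio of Mir24 to Mir27 counts showed no change beyond counting error, at 1.05 times (0.871 to 1.26) on chromosome 8 and 1.04 times (0.868 to 1.25) on chromosome 13. With 2 hearts, these intervals compare 2 libraries and say nothing of how far other hearts would vary.

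**Figure D3:**
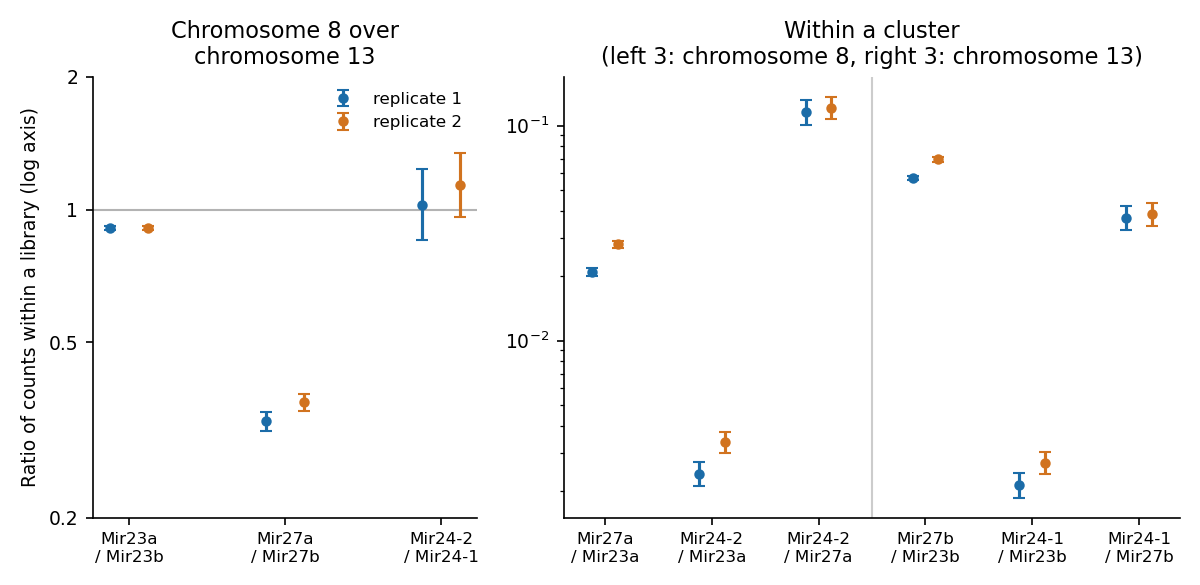
Ratios of counts within a library on log axes, with exact 95% intervals, for replicate 1 (blue) and replicate 2 (orange); the left panel sets each chromosome 8 gene over its chromosome 13 counterpart and the right panel compares genes of the same cluster. The Mir23 ratio is 0.908 and 0.909, the Mir27 ratio 0.331 and 0.365, and in the right panel the ratios to Mir23a or Mir23b are higher in replicate 2 on both chromosomes.

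The 6 genes were also tested one by one for a difference between the libraries, by an exact binomial test, two-sided, on how a gene's counts split, with Benjamini-Hochberg adjustment over the 359 genes with 10 or more counts. The scaling was edgeR's TMM, a trimmed mean of log ratios over genes. At an adjusted p under 0.05, 5 of the 6 differed, where 44.3% of all tested genes did. At this depth the test calls small differences, and it compares 2 libraries, not conditions. Of the 5, 3 were higher in replicate 2, against 20.1% of tested genes, and 2 were higher in replicate 1, against 24.2%. The median log2 ratio of replicate 2 over replicate 1 was 0.26 over the 6 genes and -0.01 over all tested genes. With tests limited to genes of 50 or more counts, all 6 differed, where 61.0% of tested genes did. Without sign, the log2 ratio of Mir24-2 was above that of 51.3% of the 359 tested genes. For Mir27a this share was 46.2%, for Mir24-1 37.6%, for Mir27b 31.2%, for Mir23b 6.41% and for Mir23a 5.85%.

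Mir27a was 1.29 times higher in replicate 2 (log2 ratio 0.37, interval 0.29 to 0.46; exact binomial, adjusted p = 1.66e-17). Mir27b was 1.17 times higher (0.23, 0.18 to 0.28; exact binomial, adjusted p = 5.15e-19) and Mir24-2 1.35 times (0.43, 0.19 to 0.69; exact binomial, adjusted p = 0.00147). All 3 were also higher in replicate 2 with library size alone, DESeq2 size factors and totals over all reads. Mir24-1 had a log2 ratio of 0.29 (0.029 to 0.55) and missed the threshold (exact binomial, adjusted p = 0.0641). It passed with library size alone (0.46, exact binomial, adjusted p = 0.00118) and with totals over all reads (0.39, exact binomial, adjusted p = 0.00600), and with tests limited to genes of 50 or more counts (exact binomial, adjusted p = 0.0472).

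For miR-23 the scaling sets the direction. With TMM, Mir23a was 1.04 times higher in replicate 1 (log2 ratio -0.058, interval -0.071 to -0.045; exact binomial, adjusted p = 1.07e-17) and so was Mir23b (-0.060, -0.072 to -0.048; exact binomial, adjusted p = 1.21e-20). With library size alone the log2 ratios were 0.11 for both, and with totals over all reads 0.047 and 0.045, all higher in replicate 2, so no direction is given for them. All 6 genes differed with library size alone, where 47.4% of tested genes did, and 5 with DESeq2 size factors, where 43.5% did. Library size alone moves the median log2 ratio of all tested genes by 0.17 and turns the calls from 72 higher in replicate 2 and 87 in replicate 1 to 103 and 67. Of all tested genes, the 3 nearest in log2 ratio to Mir23a were Mir669o, Mir467c and Mir23b, and those nearest to Mir23b were Mir467c, Mir23a and Mir669o, a likeness over only 2 hearts.

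**Figure D4:**
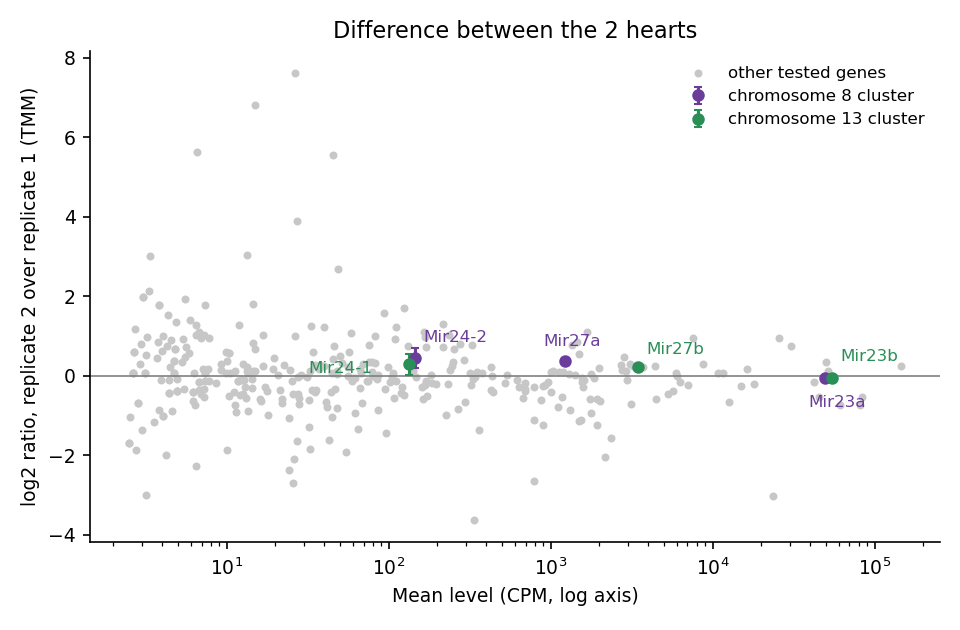
Log2 ratio of replicate 2 over replicate 1, scaled by TMM, against mean level in CPM on a log axis for the 359 tested genes (grey) and the 6 members (purple, chromosome 8; green, chromosome 13), with exact 95% intervals. Mir23a and Mir23b lie together at -0.06, a position that changes sign under other scalings, and the other 4 lie between 0.23 and 0.43.

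Markers of blood and vessel cells differed between the hearts as well. The 4 erythroid markers had a sum of 45938 CPM in replicate 1, against 7653 in the other heart; Mir451a, Mir144 and Mir486 were higher in replicate 1, and Mir3107, which faces Mir486, had 48.7 and 63.4 CPM. The 3 endothelial markers summed to 99058 and 66887 CPM, with Mir126a and Mir221 higher in replicate 1 and Mir222 at 58.8 and 60.6 CPM. Members of the next 3 lists went both ways. The 2 smooth muscle markers summed to 43118 and 44232 CPM, with log2 ratios of -0.16 for Mir143, which had 0.013 and missed the threshold with library size alone, and 0.55 for Mir145a. The 5 fibroblast markers, with Mir199a-1 at 0, summed to 2599 and 3689 CPM, with Mir214 higher in replicate 2 (0.76) and Mir199b in replicate 1 (-1.06). The 4 leukocyte markers summed to 4121 and 5447 CPM, with Mir142 higher in replicate 1 (500 and 219 CPM; -1.36) and Mir150, Mir155 and Mir223 higher in replicate 2 (0.84, 0.12 and 1.08), where Mir155 missed the threshold with DESeq2 size factors. Of 6 embryonic stem cell markers, 5 had no count in replicate 1, and the list summed to 1.45 and 190 CPM. Leaving the erythroid genes out of the TMM scaling changes only the library sizes, which moves every log2 ratio by the same amount. The log2 ratios were then 0.37 for Mir27a, 0.23 for Mir27b and -0.059 for Mir23a. The part of blood cells, or of the cells of any other marker, in these ratios was not tested.

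Other miRNA genes with related seeds or roles were set beside the family. Apart from the members, 4 annotated genes have a mature with the seed of miR-24-3p, Mir5124b, Mir6369, Mir6410 and Mir6413, and none had a count in either heart, which allows up to 1.45 and 1.70 CPM. No other gene in the RefSeq table has the seeds of miR-23a-3p or miR-27. The miR-128 genes, whose mature carries the letters of the miR-27 seed 1 base nearer its 5′ end, were low: Mir128-1 had 60.7 and 160 CPM and was higher in replicate 2 (log2 ratio 1.23; exact binomial, adjusted p = 6.23e-16), and Mir128-2 had 6 and 11 counts.

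Of 9 miRNA genes listed for vessel growth and endothelium, all were tested and 6 differed, where 44.3% of all tested genes did. Of these, 4 were higher in replicate 1, against 24.2% of tested genes: Mir126a (97017 and 65811 CPM; log2 ratio -0.73), a regulator of vessel integrity, Mir221 (1983 and 1015 CPM; -1.13), Mir210 (347 and 248 CPM; -0.65), known from low oxygen, and Mir132 (329 and 314 CPM; -0.24), which missed the threshold with library size alone. Mir130a (2762 and 3700 CPM; 0.25) and Mir92-1 (2599 and 3586 CPM; 0.30), of the miR-17 cluster, were higher in replicate 2. The list's median log2 ratio was -0.18, and -0.012 with library size alone, beside -0.01 and 0.16 over all tested genes.

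Of 11 genes listed for growth and stress of the heart, 10 were tested and 6 differed, beside 44.3% of all tested genes. Of all tested genes, 20.1% were higher in replicate 2 and 24.2% in replicate 1. Higher in replicate 2 were Mir195a (990 and 2383 CPM; log2 ratio 1.10), Mir214 (926 and 1765 CPM; 0.76), Mir499 (0.48) and Mir208a (0.24). Higher in replicate 1 were Mir22 (14790 and 10516 CPM; -0.66), a miRNA of muscle growth, and Mir199b (31.8 and 17.0 CPM; -1.06). Mir21a, known from fibroblasts, had 1635 and 1899 CPM and missed the threshold (log2 ratio 0.047). It was higher in replicate 2 with library size alone (0.22) and with totals over all reads (0.15). The list's median was 0.19, beside -0.01 over all tested genes. With library size alone 8 differed, beside 47.4% of all tested genes. Of the 8, 6 were higher in replicate 2, as were 103 of the 359 tested genes. The list's median was then 0.36, beside 0.16 over all tested genes. On the CPM scale, Mir23a and Mir23b were each above every gene of this list.

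The pair Mir24-1 and Mir24-2 was set beside all gene pairs whose symbols end in -1 and -2. There were 43 such pairs, of which 35 share an identical RefSeq mature and 17 had both copies at 2 CPM or more in both hearts. The Mir24 pair summed to 227 and 328 CPM (mean 277 ± 71.6), the ninth highest sum, against a median of 11.2 CPM. Its copies had nearly even counts. The higher copy stood at 1.03 and 1.14 times the lower, and none of the other 16 detected pairs had a smaller ratio in both hearts. The medians of those 16 were 2.89 and 2.66. At the other end, the copies of Mir181b differed by 115 and 223 times. Those of Mir16 lay between, at 8.56 and 6.55 times. Nearer to even were those of Mir194, at 1.46 and 1.41 times, and of Mir218, at 1.17 and 1.62 times. These are descriptions of reads that fit a single place, and no test was made.

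The steady split of miR-23 was set beside other pairs of genes whose symbols differ only in the letters a and b, a comparison chosen after the values were seen and given with no test. With 10 or more counts in each gene and none at 0, 18 pairs were available. The a to b ratio of miR-23 moved by 0.0020 on the log2 scale (interval -0.016 to 0.020), the smallest shift of the 18, and that of miR-27 by 0.14 (0.044 to 0.24), the fourth smallest. The median shift, without sign, was 0.36 and the largest, of Mir193a and Mir193b, 2.36. The next smallest shifts were 0.0064 (-0.16 to 0.17) for Mir30a and Mir30b and 0.032 (-0.22 to 0.29) for Mir208a and Mir208b, with wider intervals that include that of miR-23. Depth differs among these pairs: Mir99a and Mir99b, with 253137 counts, moved by 0.37 (0.35 to 0.40), and the miR-23 pair has 399653.

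**Figure D5:**
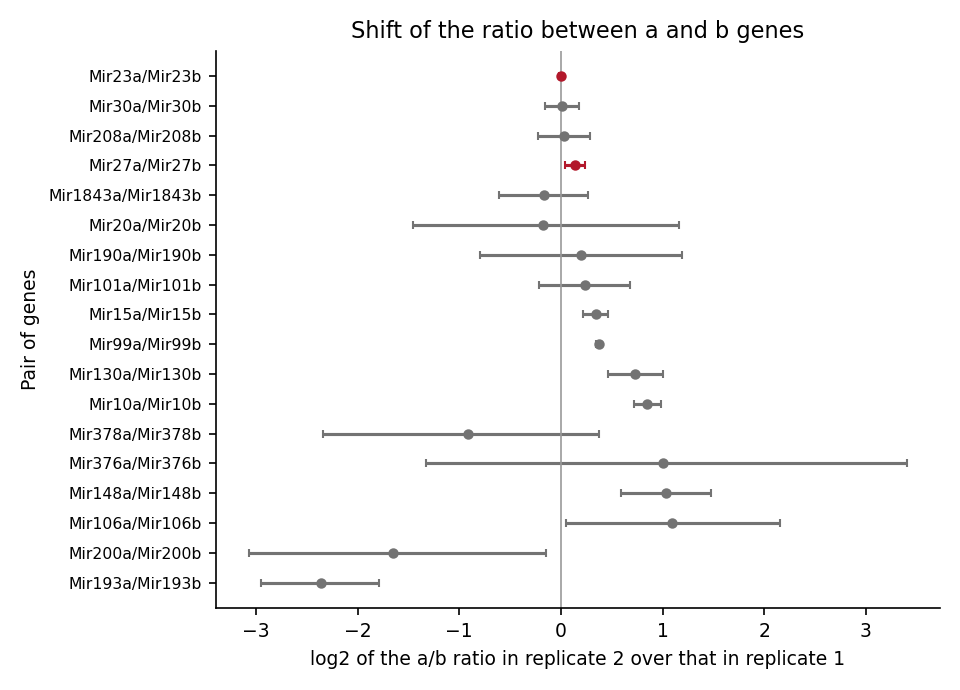
Shift of the a to b ratio between the hearts (log2 of the ratio in replicate 2 over that in replicate 1) for 18 gene pairs, ordered by size, with exact 95% intervals; miR-23 and miR-27 in red. The miR-23 point lies at 0.0020 with an interval narrower than its symbol, the miR-27 point at 0.14, and the last pair at 2.36 to the left.

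Among the 6 genes, counting with or without strand changed only the Mir24 genes. Mir23a, Mir23b, Mir27a and Mir27b had the same counts with and without regard to strand and no read on the opposite strand in either heart. For Mir24-1 and Mir24-2, which are faced by Mir3074-1 and Mir3074-2, the counts without regard to strand are 0 in both hearts, since reads at overlapping genes stand in a row of ambiguous reads there (601257 and 470280 reads over all genes). On its own strand, Mir3074-2 had 3 and 0 counts, at or under the limit of 3 that a count of 0 allows, and Mir24-2 had 238 and 308. Mir3074-1 had 52 and 33 counts, against 232 and 271 for Mir24-1.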

How the data were processed

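The authors deposited unnormalized counts of reads on mm10 for each miRNA gene of GENCODE M21, per the deposited notes, 1 library a file. The 3 columns count either strand, the sense strand and the antisense strand for 2202 genes, and 4 more rows hold reads given to no gene. Aligner and counter: not given in the sources used here. Symbols and coordinates came from GENCODE M21 (all IDs matched), sequences from RefSeq. Sense-strand counts were used throughout, with gene totals as library sizes for CPM. Genes with a sum of 10 counts or more entered a two-sided exact binomial test on TMM sizes (edgeR 4.0.16; DESeq2 1.42.0 size factors as an alternative) with Benjamini-Hochberg adjustment; log2 ratios carry a prior count of 0.5. Ratios within a library have Clopper-Pearson intervals, and their change between hearts a conditional exact interval (SciPy 1.17.1). In 2 simulated libraries of 356 tested genes the test called 54 of 90 genes changed 1.5-fold, 91 of 96 changed 4-fold and 4 of 170 unchanged. These libraries were drawn with counting error alone and no variation between animals. The calls of unchanged genes therefore do not give the rate of false calls in the hearts. Named genes were the members, up to 4 genes a list (further ones were named after their values were seen), the neighbours in level, the 3 genes of nearest ratio and overlapping miRNA genes. The members and lists were chosen with earlier results of these data known. The listed symbols Mir92a-1 and Mir486b were matched through RefSeq synonyms, as Mir92-1 and Mir3107.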

Additional observations from a re-analysis of the deposited data

Results flagged for a closer look

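Reads on the strand opposite to a member enter no comparison of levels. Mir24-1 had 52 such reads in replicate 1 and 33 in replicate 2, above the 3 counts that a count of 0 allows, and they equal the counts of Mir3074-1 on its own strand. Mir24-2 had 3 and 0.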

How the results depend on the processing

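Each of the 9 ratios within a library moved by less than the SD between hearts when a heart was left out, which with 2 hearts only gives the other heart's value and could not show more, and the 4 ratios that strand-blind counts can give were the same there. All 6 members stayed detected at 1 and 10 CPM. The number of members that differed was 5, and from 4 to 6 under the alternatives. The log2 ratio of Mir23a changed sign with library size alone (0.11) and with totals over all reads (0.047), and that of Mir23b did so too (0.11 and 0.045). Mir24-1 passed the threshold under 3 alternatives (library size alone, totals over all reads, 50 or more counts). All 6 members differed under these same 3, 5 of 6 in the other tests on sense counts, and all 4 that could be tested without regard to strand. Of all tested genes, 47.4% differed with library size alone, 45.96% with totals over all reads and 61.0% with 50 or more counts. Without regard to strand 44.2% did. In the tests where 5 of 6 members differed, the share was 41.4% to 44.3%, apart from the test without a filter. Without a filter on low counts 151 of 628 genes were called, against 159 of 359. In counts without regard to strand Mir24-1 and Mir24-2 are at 0 and the other 4 members have higher CPM, since the total is smaller (75718 CPM for Mir23b); over all reads each level is lower (19780 CPM for Mir23b). Counts of 232 to 308 limit the Mir24 ratios to changes beyond about the width of their intervals.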
